A study of Drosophila melanogaster with 12 samples.

Results

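The question was how depletion of the splicing factor U2AF50 altered the distribution of each mRNA between nucleus and cytoplasm in D. mel-2 cells, a line of Drosophila melanogaster that derives from embryos. The measure was the shift, defined here as the log2 ratio of nuclear to cytoplasmic signal after U2AF50 RNA interference minus the same log2 ratio after non-specific RNA interference, the control. A positive shift is a signal weighted more to the nuclear fraction after depletion, and a negative shift one weighted more to the cytoplasmic fraction. The fractions are named by their labels, and what else the nuclear fraction held, such as mRNA bound to the endoplasmic reticulum, was not tested. All 12 arrays of the series entered it, as 4 groups of 3, namely the nuclear and the cytoplasmic RNA of U2AF50-depleted cells and the nuclear and the cytoplasmic RNA of control cells. Cells of all 4 groups carried double-stranded RNA of some kind, and no untreated cells were analysed here. The descriptions of 9 arrays name a hypotonic lysis, while those of control cytoplasm replicates 1 and 2 and control nucleus replicate 1 do not. Total RNA of each sample was read on a 1-colour Affymetrix expression array, and nothing in the labels says that the replicates came from separate cultures. The p-values therefore reflect only how far these samples scatter, and that scatter may be technical. Of 14010 probe sets, 44 array controls were left out and the 8379 brightest of the remaining 13966 were tested.

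U2AF is a pair of proteins that bind the end of an intron. The large subunit, U2AF50 in the fly, contacts the pyrimidine-rich tract before the 3' splice site, and the small subunit, U2AF38, contacts the splice site itself. Together they bring the U2 particle to the intron before it is cut out. Spliced mRNAs are then handed to export adaptors and the export receptor, and mRNAs of secreted and membrane proteins are translated on the endoplasmic reticulum, whose membrane is continuous with the outer membrane of the nucleus. The large subunit of U2AF also moves between nucleus and cytoplasm, and a role for it in export has been examined in the fly.

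The nucleus to cytoplasm ratio shifted beyond the replicate spread for 14 probe sets, 6 of them towards the nucleus and 8 towards the cytoplasm (limma, Benjamini-Hochberg adjusted p under 0.05 over 8379 probe sets). These are 0.167% of the probe sets tested, 0.0716% higher and 0.0955% lower. Named genes with a positive shift were RpL28, eIF6, U2af50, CG15784 and CG14903. Named genes with a negative shift were CG3164, CG8026, miple2, Sil1, lncRNA:CR42862 and Swim. Another 3 probe sets, 150001_at with a positive shift and 143845_at and 144927_s_at with negative ones, have no gene name here. All 14 shifts were at least 2-fold, which follows largely from the threshold. On simulated data 4% of changes of a log2 size of 1 were recovered and 0% of those of 0.5. Of the probe sets tested, 5.13% had a positive and 7.89% a negative shift at an unadjusted p under 0.05.

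The number of calls depended on single arrays. Without control nucleus replicate 1 there were 3 positive and 0 negative calls (limma, with 867 probe sets at an unadjusted p under 0.05), and without control cytoplasm replicate 3 there were 30 and 53. In the remaining single omissions the positive calls numbered 3 to 9 and the negative ones 1 to 25, the lowest of both without control nucleus replicate 3 or U2AF50 cytoplasm replicate 3 and the highest of both without U2AF50 nucleus replicate 3. The total moved by less than 1.5 times only without control cytoplasm replicate 1 (8 and 11) or replicate 2 (6 and 6). The split of the calls also followed the scaling of the arrays, with 57.1% of the calls negative after quantile normalisation, 71.4% on the values as deposited, 74.1% with quantiles taken separately per fraction and 94.5% after median centring. The median shift of all tested probe sets was -0.11, 0.01, -0.11 and -0.38 in these 4 scalings, so a shift of a gene list is read against the median of all probe sets. The shift also varied with the ratio itself, as given below, so some lists with high ratios are set beside probe sets of like ratio too.

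**Figure D1:**
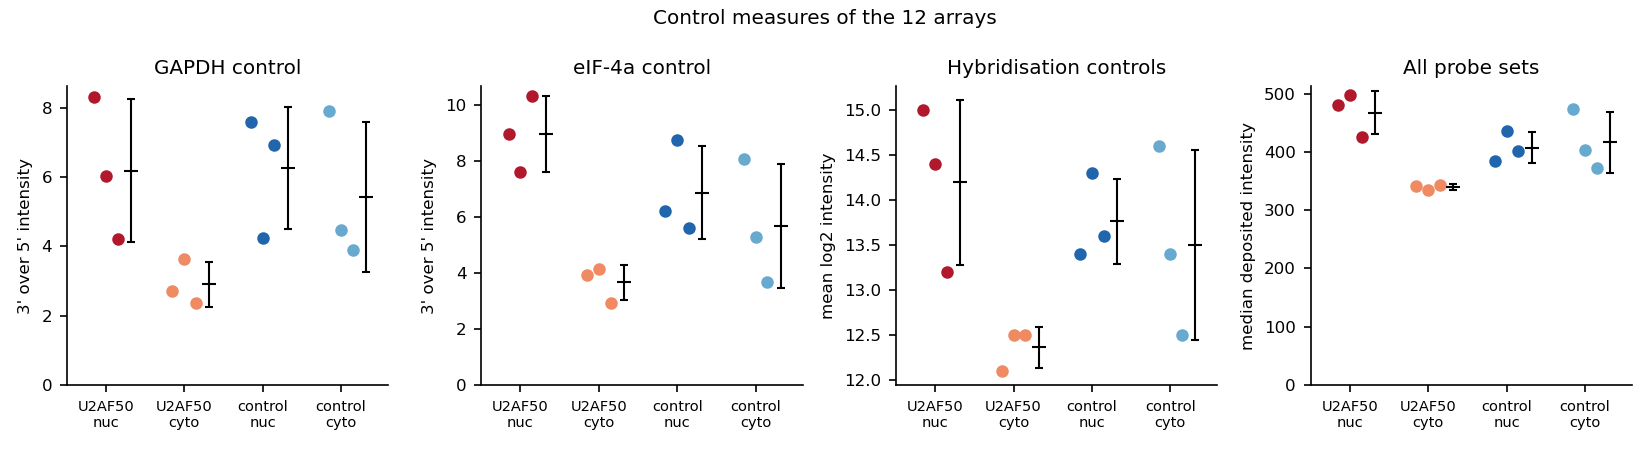
Control measures of the 12 arrays, as the 3' over 5' intensity ratio of the GAPDH and eIF-4a control probe sets, the mean log2 intensity of the hybridisation controls and the median deposited intensity. Points are arrays and the bars beside them means with SD (n = 3 per group); the U2AF50 cytoplasm arrays lie lowest in mean for all 4 measures.

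Control probe sets had values that ran along the same contrast. The ratio of the 3' to the 5' probe set of GAPDH, which grows as RNA or its labelled copy is shortened, was 6.19 ± 2.07 in the U2AF50 nucleus and 2.9 ± 0.657 in the U2AF50 cytoplasm, against 6.24 ± 1.76 in the control nucleus and 5.42 ± 2.17 in the control cytoplasm (SD, n = 3 each). For eIF-4a the ratio was 8.96 ± 1.37 and 3.66 ± 0.635 in nucleus and cytoplasm of depleted cells, against 6.86 ± 1.65 and 5.67 ± 2.22 in those of control cells (SD, n = 3 each). The difference between fractions was thus 3.28 for GAPDH and 5.29 for eIF-4a in depleted cells (exact permutation p = 0.1 for each, 2-sided, the smallest that 3 against 3 arrays allow), and 0.822 (exact permutation p = 0.8) and 1.19 (exact permutation p = 0.4) in control cells. With the GAPDH ratio as a covariate there were 3 positive and 0 negative calls, and 3 and 0 again with the hybridisation controls as a covariate (limma, 660 and 699 probe sets at an unadjusted p under 0.05). The calls were those of RpL28, eIF6 and CG15784 with either covariate. Some genes that no longer passed had shifts of like size with the GAPDH ratio as covariate. They were -1.85 for Sil1, -1.65 for miple2, -1.46 for lncRNA:CR42862 and -1.11 for Swim, where -1.7, -1.7, -1.45 and -1.23 were found without it. With the hybridisation controls as covariate they were -1.69 for Sil1, -1.52 for miple2 and -1.3 for lncRNA:CR42862. The SE rose from 0.32 to 0.36 for miple2 and from 0.26 to 0.29 for lncRNA:CR42862 in that fit. CG3164 moved more, with a shift of -1.7 in the first fit and -1.38 in the second, where it was -2.15 with no covariate. With the 9 arrays labelled as hypotonic lysis, where control cytoplasm replicate 3 stands alone and is assumed to vary like the other groups, limma gave 0 calls and 473 probe sets at an unadjusted p under 0.05. The part of RNA quality in the shifts below was not tested further.

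**Figure D2:**
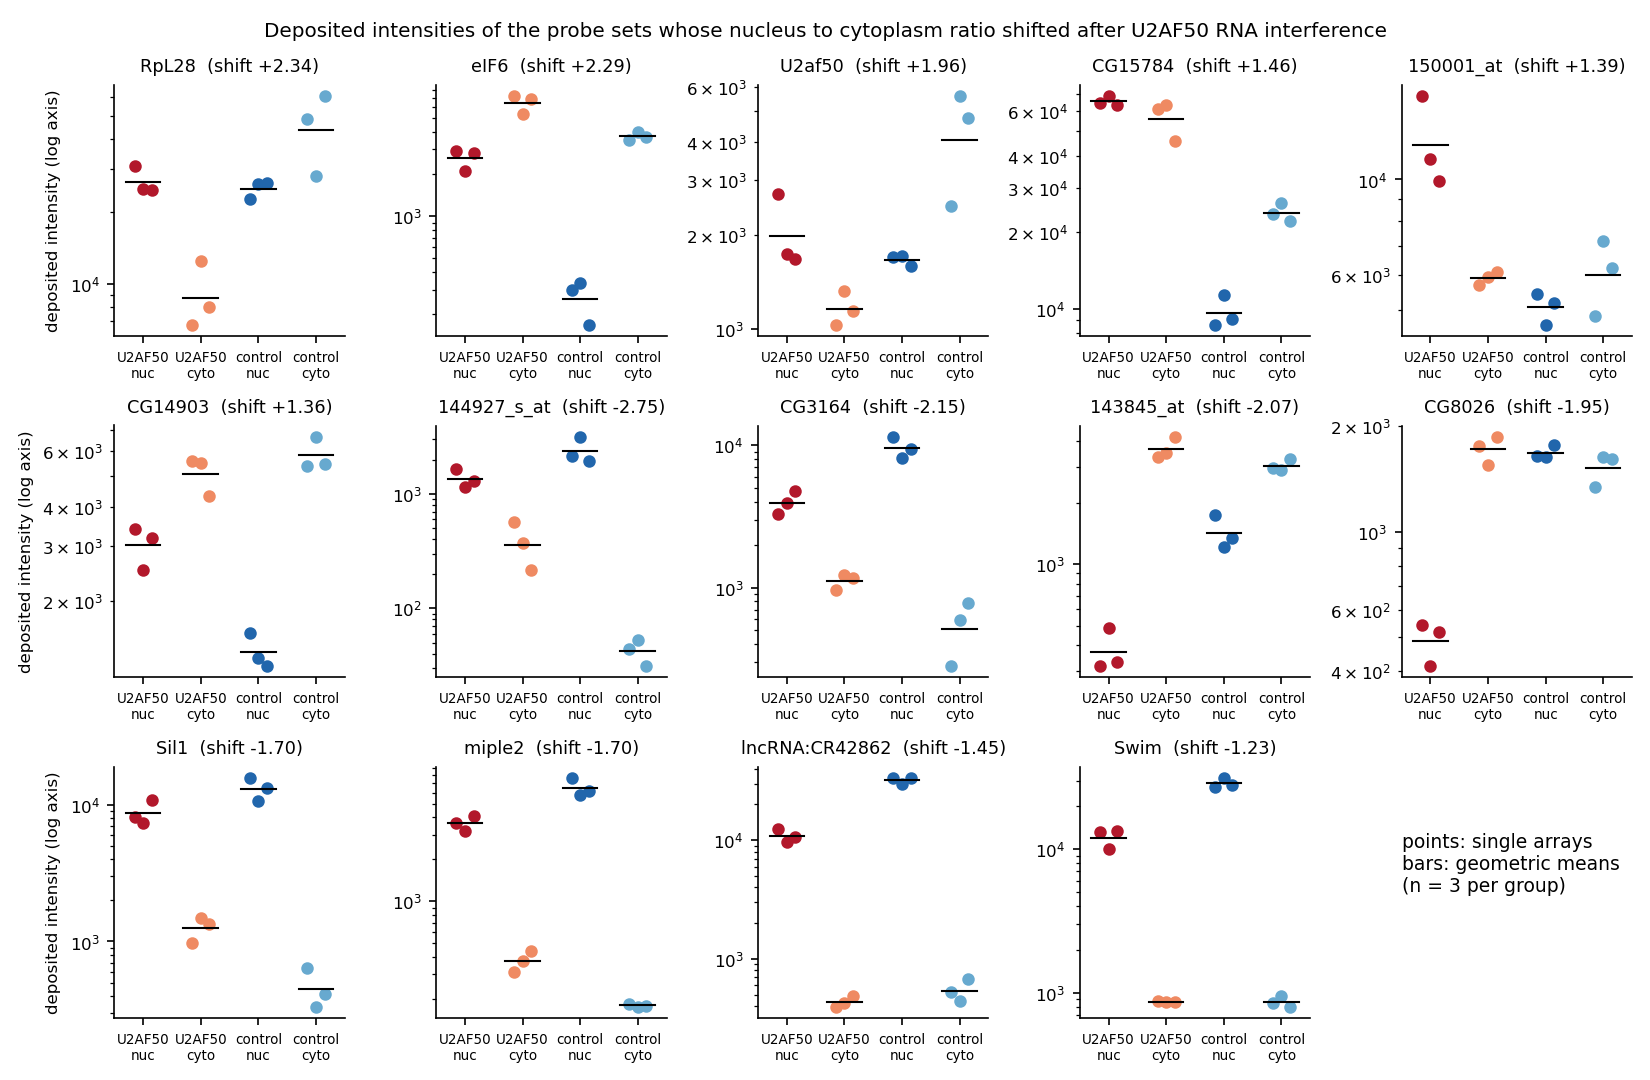
Deposited intensity of the 14 probe sets that passed the test, on log axes, in the 3 arrays of each group. Points are arrays, bars are geometric means and the number in each title is the shift in log2 units; RpL28 and U2af50 are low in the U2AF50 cytoplasm, and lncRNA:CR42862 and Swim are lower in the U2AF50 nucleus than in the control nucleus.

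The targeted gene shifted towards the nucleus. U2af50 gave intensities of 2718, 1738 and 1678 in the nucleus and 1030, 1327 and 1143 in the cytoplasm of U2AF50-depleted cells, against 1701, 1710 and 1589 in the nucleus and 2474, 5606 and 4751 in the cytoplasm of control cells. Its mRNA was thus the more nuclear one in depleted cells and the more cytoplasmic one in the control, and the arrays of both fractions did not overlap under either treatment. The shift was 1.96 (SE 0.37, limma adjusted p = 0.0375, n = 3 per group), or 3.89-fold. The change between treatments lay in the cytoplasm, with a log2 difference of -1.75 (SE 0.26, limma adjusted p = 0.0012) there and 0.21 (SE 0.26, limma adjusted p = 0.738) in the nucleus. The shift of U2af50 lay between 1.58 and 2.28 in 26 alternative settings and passed in 10 of them; without single arrays its adjusted p in limma was lost in 9 of 12 cases. U2af38, which encodes the small subunit, had a shift of -0.09 (SE 0.28, limma adjusted p = 0.912).

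RpL28, a protein of the large ribosomal subunit, showed the same pattern as U2af50. It had intensities of 30856, 24780 and 24626 in the nucleus and 6773, 12439 and 8052 in the cytoplasm of depleted cells, against 22545, 26133 and 26266 in the nucleus and 48290, 28190 and 60395 in the cytoplasm of control cells. The nuclear arrays of both treatments overlapped, while all 3 cytoplasmic arrays of depleted cells lay below all 3 of the control. Its shift was 2.34 (SE 0.31, limma adjusted p = 0.00311), or 5.08-fold, with the cytoplasmic signal down by a log2 difference of -2.16 (SE 0.22). RpL28 passed in 24 of 26 alternatives, the exceptions being a fit without an intensity trend (adjusted p = 0.108) and the arrays labelled as hypotonic lysis (adjusted p = 0.0655).

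In 4 probe sets the positive shift went with a rise of the nuclear signal. The comparisons within a fraction use the same arrays as the shift and are given beside it, not as separate evidence. After depletion, 1.58% of those tested had passed as higher and 1.83% as lower in the nucleus (3.40% in all), and 1.77% as higher and 0.800% as lower in the cytoplasm (2.57% in all; limma, adjusted p under 0.05). eIF6, a factor that binds the large ribosomal subunit and keeps it from joining the small one, had 2931, 2105 and 2813 in the nucleus and 7223, 5381 and 6913 in the cytoplasm of depleted cells, against 297, 333 and 168 in the nucleus and 3522, 3974 and 3679 in the cytoplasm of control cells. On this probe set the cytoplasm was brighter under both treatments, by a log2 ratio of -1.16 in depleted cells and -3.45 in control cells. Its shift was 2.29 (SE 0.3, limma adjusted p = 0.00311), and the second eIF6 probe set, 141854_at, had a shift of 1.93 (SE 0.69) that did not pass (limma adjusted p = 0.263). The second probe set had 2134, 1036 and 495 in the nucleus and 544, 738 and 559 in the cytoplasm of depleted cells, against 196, 208 and 622 in the nucleus and 1319, 1143 and 534 in the cytoplasm of control cells. Its depleted fractions overlapped, with 2 of 3 nuclei above all cytoplasms, so the probe sets of eIF6 disagree on which fraction was brighter after depletion. eIF6 passed in 25 of 26 alternatives, all but the arrays labelled as hypotonic lysis (adjusted p = 0.165).

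CG15784 was the 1 called gene whose rise passed in both fractions. For eIF6 the cytoplasmic arrays of depleted cells also lay above those of the control, with a log2 difference of 0.71 that did not pass (limma adjusted p = 0.102). The intensities of CG15784 were 64575, 69023 and 63833 in the nucleus and 61107, 63363 and 45735 in the cytoplasm of depleted cells, against 8635, 11343 and 9101 in the nucleus and 23537, 26228 and 22137 in the cytoplasm of control cells. The log2 ratio of nucleus to cytoplasm was 0.02 in depleted cells (limma adjusted p = 0.907) and -1.44 in control cells. The log2 rise was 2.91 (SE 0.14) in the nucleus and 1.44 (SE 0.14) in the cytoplasm, which left a shift of 1.46 (SE 0.2, limma adjusted p = 0.00311). CG15784 passed in 24 of 26 alternatives. The remaining calls were less stable. Of 26 alternatives, 143845_at passed in 21, 150001_at, CG8026 and Sil1 in 16 each, lncRNA:CR42862 and 144927_s_at in 14 each, Swim in 12, CG3164 and CG14903 in 11 each and miple2 in 10. Of the 12 omissions of single arrays, CG3164 and miple2 passed in 3, Swim and CG14903 in 4 and lncRNA:CR42862 and 144927_s_at in 5. The sign of all 14 shifts was kept in every one of these alternatives. That follows largely from their choice by the test on the same arrays, which the alternatives reuse, and adds little to the calls.

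CG14903 had 3401, 2515 and 3183 in the nucleus and 5584, 5507 and 4307 in the cytoplasm of depleted cells, against 1583, 1314 and 1239 in the nucleus and 5403, 6672 and 5477 in the cytoplasm of control cells. All 3 depleted nuclei were above the 3 control nuclei, and the cytoplasmic arrays overlapped (shift 1.36, SE 0.25, limma adjusted p = 0.0309). The unnamed probe set 150001_at had 15600, 11170 and 9895 in the depleted nucleus and 5705, 5958 and 6102 in the depleted cytoplasm, against 5435, 4610 and 5173 in the control nucleus and 4837, 7200 and 6249 in the control cytoplasm (shift 1.39, SE 0.23, limma adjusted p = 0.0176).

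Among the 8 negative shifts the change within a fraction passed as a fall in the nucleus for 5 probe sets and as a rise in the cytoplasm for 3. This split goes by the test and not by size, since the nuclear and cytoplasmic differences of CG3164 were -1.1 and 1.04 and those of miple2 -0.69 and 1.02. Of these 8, 7 had a positive nucleus to cytoplasm log2 ratio in control cells and 6 still had one in depleted cells, so these 6 stayed on the nuclear side with a smaller ratio. Of all those tested, 17.9% were brighter and 30.9% dimmer in the nucleus than in the cytoplasm of depleted cells (48.8% in all), against 16.9% and 25.2% in control cells (42.1% in all; limma, adjusted p under 0.05).

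Swim, which encodes a secreted protein that binds the Wingless signal, had 13103, 10003 and 13418 in the nucleus and 874, 862 and 857 in the cytoplasm of depleted cells, against 26968, 31391 and 27982 in the nucleus and 843, 955 and 798 in the cytoplasm of control cells. The nuclear signal of every depleted array was below that of every control array, while the cytoplasmic arrays overlapped. The log2 ratio was 3.65 after U2AF50 RNA interference and 4.88 in the control, a shift of -1.23 (SE 0.22, limma adjusted p = 0.0309).

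lncRNA:CR42862, a long noncoding RNA, had 12449, 9716 and 10620 in the nucleus and 395, 429 and 485 in the cytoplasm of depleted cells, against 33456, 29497 and 33354 in the nucleus and 523, 440 and 672 in the cytoplasm of control cells. Its nuclear signal fell by 1.5 on the log2 scale (SE 0.18) and the cytoplasmic difference of -0.05 did not pass (limma adjusted p = 0.929). The shift was -1.45 (SE 0.26, limma adjusted p = 0.0306). A second probe set for this RNA, 142200_at, gave a shift of -1.6 (SE 0.57) that did not pass (limma adjusted p = 0.259).

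CG3164, of the ABC transporter family, had 3286, 3938 and 4773 in the nucleus and 963, 1219 and 1169 in the cytoplasm of depleted cells, against 11477, 8189 and 9427 in the nucleus and 281, 593 and 785 in the cytoplasm of control cells. Both fractions separated the treatments array by array, in opposite directions, although only the nuclear fall passed on its own (log2 difference -1.1, limma adjusted p = 0.0414, against 1.04 and adjusted p = 0.0683 in the cytoplasm). The shift was -2.15 (SE 0.4, limma adjusted p = 0.0375), or 4.43-fold.

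CG8026 and the unnamed 143845_at had no nuclear excess in control cells that passed. CG8026 had 541, 415 and 518 in the nucleus and 1752, 1543 and 1858 in the cytoplasm of depleted cells, against 1638, 1632 and 1765 in the nucleus and 1340, 1626 and 1606 in the cytoplasm of control cells. The control fractions overlapped (log2 ratio 0.23, limma adjusted p = 0.477) and the depleted nucleus was below the other 3 groups, and the shift was -1.95 (SE 0.33, limma adjusted p = 0.0224). The probe set 143845_at had 317, 485 and 331 in the depleted nucleus and 3339, 3484 and 4196 in the depleted cytoplasm, against 1730, 1216 and 1342 in the control nucleus and 2953, 2895 and 3287 in the control cytoplasm (shift -2.07, SE 0.31, limma adjusted p = 0.00847).

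Sil1, an exchange factor of the endoplasmic reticulum chaperone BiP in yeast and mammals, had 8123, 7377 and 10872 in the nucleus and 970, 1489 and 1342 in the cytoplasm of depleted cells, against 15629, 10574 and 13257 in the nucleus and 643, 333 and 417 in the cytoplasm of control cells. All depleted cytoplasms lay above all control cytoplasms, and the nuclear arrays overlapped. The shift was -1.7 (SE 0.29, limma adjusted p = 0.0224), with a cytoplasmic rise of 1.3 on the log2 scale (SE 0.2).

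miple2, a secreted growth factor of the midkine and pleiotrophin family, had 3642, 3184 and 4061 in the nucleus and 313, 372 and 439 in the cytoplasm of depleted cells, against 7638, 5759 and 6147 in the nucleus and 185, 175 and 179 in the cytoplasm of control cells. Both fractions separated the treatments, but only the cytoplasmic rise of 1.02 passed (limma adjusted p = 0.027), and the shift was -1.7 (SE 0.32, limma adjusted p = 0.0375). The unnamed 144927_s_at had 1658, 1151 and 1306 in the depleted nucleus and 567, 375 and 214 in the depleted cytoplasm, against 2136, 3150 and 1954 in the control nucleus and 44.5, 53.3 and 31.4 in the control cytoplasm (shift -2.75, SE 0.5, limma adjusted p = 0.0309). Its control cytoplasm values lie below the pseudocount of 94.7, so its log2 shift understates the change of signal.

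Each nuclear array was set against each cytoplasmic array of its treatment, which gives 9 differences per treatment. The differences of depleted cells did not overlap those of control cells for 2.53% in the positive and 4.15% in the negative direction, 6.68% in all. The 14 called probe sets were among them, which follows from their choice on the same arrays and adds nothing to it.

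**Figure D3:**
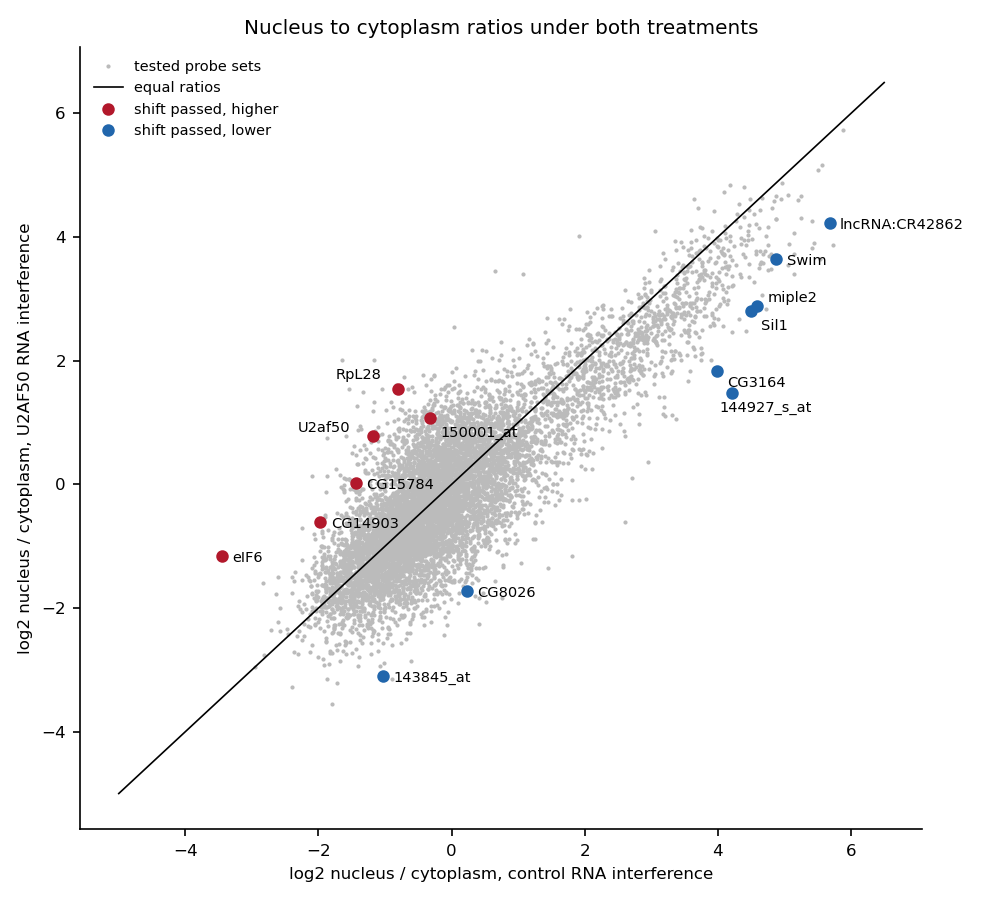
Log2 nucleus to cytoplasm ratio after U2AF50 RNA interference (vertical) against the same ratio after non-specific RNA interference (horizontal) for the 8379 probe sets tested, with the line of equal ratios. The 6 positive and 8 negative shifts that passed are named; 6 of the negative ones lie where both ratios are well above 0.

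Across the range of ratios the shift was not uniform. Probe sets were binned by the mean of their log2 ratios under both treatments, a description added after the values were seen. The 319 probe sets with a mean above 3 had a median shift of -0.46, and 83.4% of them were negative. In the 415 with a mean between 2 and 3 the median was -0.43 and 77.6% were negative, against a median of -0.11 and 57% over all tested. The median ratio of the uppermost bin was 3.41 in depleted cells and 3.82 in control cells, where the median log2 difference between treatments was -0.07 in the nucleus and 0.41 in the cytoplasm. Between 0 and 1 the median shift was 0.14 over 2036 probe sets. The most cytoplasmic bin, with a mean under -1, also lay below the median of all, at -0.19 over 1759 probe sets with 64.7% negative. In 26 alternatives the 2 upper bins lay between -0.85 and -0.28, and below the median of all probe sets in each.

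Just short of the threshold lay further genes, given as values that did not pass. On the negative side were the RNA-binding protein gene qkr54B (shift -1.6, limma adjusted p = 0.0511), cher, the fly filamin (-1.17, adjusted p = 0.0515), the tetraspanin gene Tsp96F (-1.45, adjusted p = 0.0527), Agpat3, an acyltransferase of phospholipid synthesis (-1.74, adjusted p = 0.0527), the metalloprotease gene Ide (-1.24, adjusted p = 0.0527) and lt, a subunit of a vacuolar tethering complex (-1.87, adjusted p = 0.0571). A second Agpat3 probe set had a shift of -0.19 (adjusted p = 0.916). On the positive side were the complex I subunit gene ND-MWFE (1.02, limma adjusted p = 0.0571), CG13919 (1.15, adjusted p = 0.0571), the small GTPase gene RhoL (2.01, adjusted p = 0.0678), CG13678 (1.16, adjusted p = 0.0825), the UDP-glycosyltransferase gene Ugt302K1 (2.79, adjusted p = 0.088), the forkhead factor gene bin (2.09, adjusted p = 0.0895) and the ribosomal protein gene RpS26 (0.97, adjusted p = 0.101). The other CG13678 probe set had a shift of 0.83 (SE 0.34, limma adjusted p = 0.319). Ugt302K1 was bright in the depleted nucleus alone, at 2062, 2505 and 3025, with 111, 47.8 and 231 in the depleted cytoplasm, against 327, 80.9 and 267 in the control nucleus and 139, 66.5 and 110 in the control cytoplasm.

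**Figure D4:**
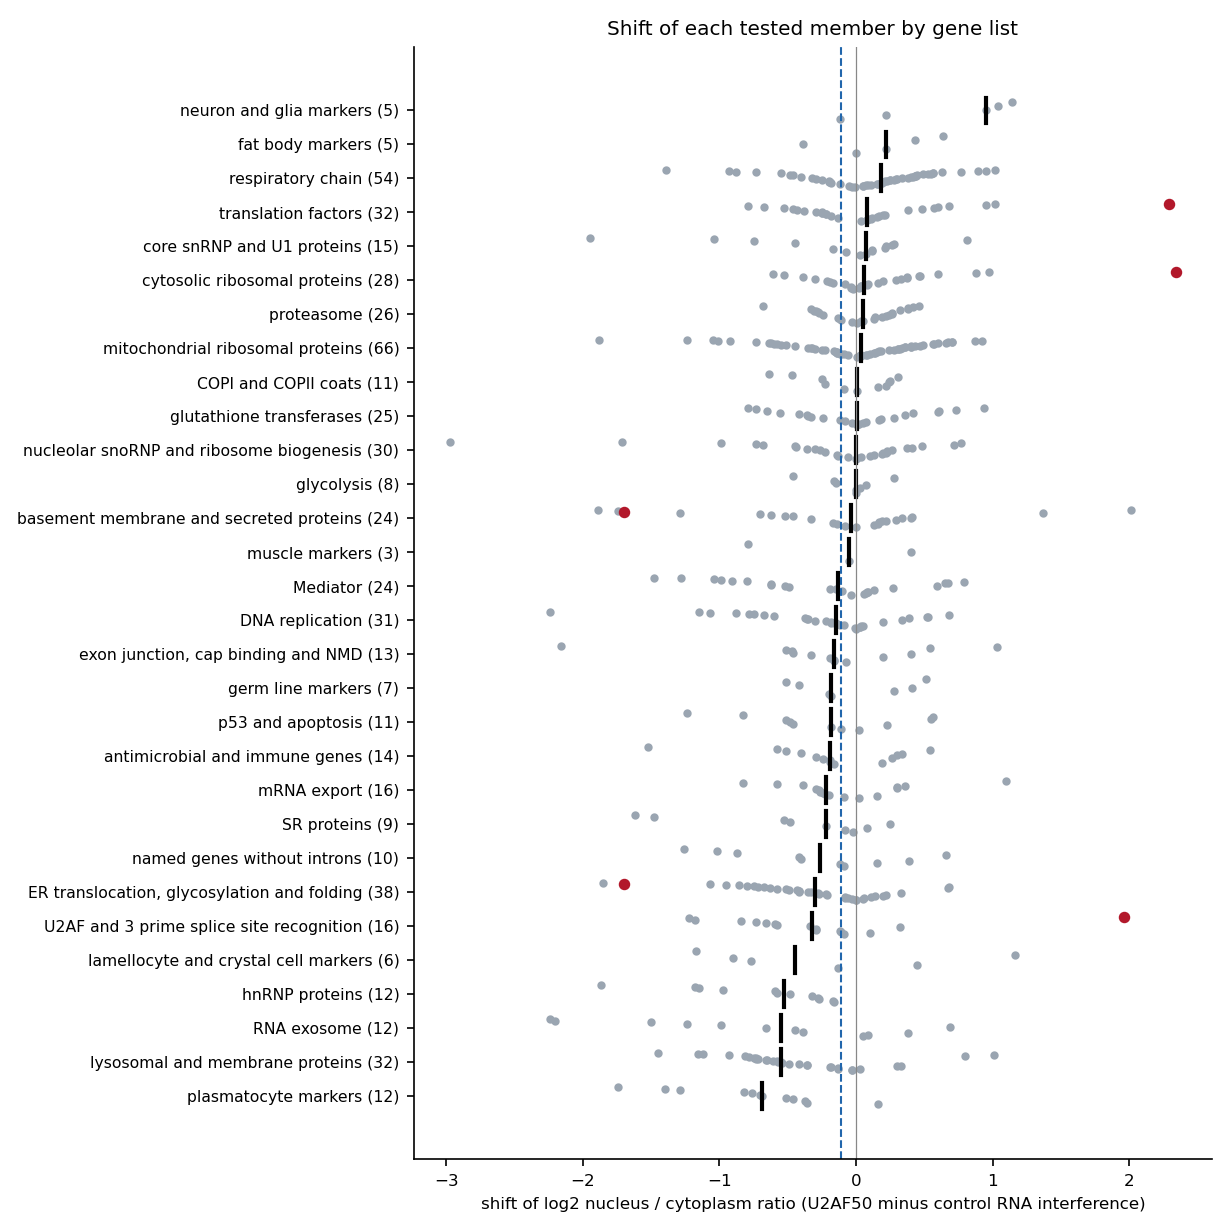
Shift of every tested member of each gene list in log2 units (positive is towards the nuclear fraction after U2AF50 RNA interference), with the number of tested members in brackets. Grey points did not pass, red points passed, black bars are list medians and the dashed line is the median of all probe sets (-0.11); among lists with at least 3 tested genes plasmatocyte markers (-0.69), then lysosomal and membrane proteins and the RNA exosome (-0.55 each) have the lowest medians.

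Gene lists were described by their counts and medians, with 1 probe set per gene. Over all probe sets 57% of the shifts were negative, and 7.89% were negative and 5.13% positive at an unadjusted p under 0.05. List medians moved with the processing: over 26 alternatives they ran between -1.18 and -0.36 for plasmatocyte markers, -0.95 and -0.21 for hnRNP genes, -0.85 and -0.15 for RNA exosome genes, -0.75 and -0.17 for 3' splice site recognition, -0.73 and -0.3 for lysosomal and membrane proteins and -0.69 and -0.18 for the endoplasmic reticulum list. Among 38 tested genes of endoplasmic reticulum translocation, glycosylation and folding, 1 of 39 on the array being too dim, 1 passed (Sil1), and the median shift was -0.3. In this list 11 members, 28.9%, had a negative shift at an unadjusted p under 0.05. Its median log2 ratio was 2.21 in depleted cells and 2.68 in control cells, against -0.29 and -0.27 over all probe sets. Of its members 73.7% had a negative shift. Among all probe sets with a mean log2 ratio of 2 to 3 the share was 77.6% and the median shift -0.43, so the negative shift was not particular to this list. Ostgamma, of the oligosaccharyltransferase, had a shift of -1.85 (SE 0.39, limma adjusted p = 0.0571). It had 24466, 22721 and 31670 in the nucleus and 1543, 1579 and 1954 in the cytoplasm of depleted cells, against 26666, 21394 and 24284 in the nucleus and 242, 210 and 622 in the cytoplasm of control cells, so that the treatments differed in the cytoplasm and overlapped in the nucleus. Sec61alpha, the channel of the translocon, differed in the nucleus instead, with 33546, 31548 and 31638 in depleted cells against 53939, 64140 and 62452 in control cells, and had a shift of -1.07 (limma adjusted p = 0.0895). Sec63, a partner of that channel, had a shift of -0.95 (adjusted p = 0.398).

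Lysosomal and other membrane proteins had a median of -0.55 over 32 tested genes, 10 of which (31.2%) were negative at an unadjusted p under 0.05 and 0 of which passed in limma. Their median log2 ratio was 2.41 in depleted cells and 2.59 in control cells, and 84.4% had a negative shift. Among all probe sets with a mean log2 ratio of 2 to 3 the median shift was -0.43 and 77.6% were negative. Serinc (-1.16, adjusted p = 0.245) and the protease gene CtsB (-1.12, adjusted p = 0.193) were among the lowest and the sterol-binding gene Npc2a (1.01, adjusted p = 0.178) the highest. Basement membrane and secreted proteins had a median of -0.04 over 24 genes, with 1 passing (miple2). The members spread widely, between -1.89 for the collagen IV gene vkg (adjusted p = 0.223) and 2.01 for the growth factor gene Idgf4 (adjusted p = 0.238). COPI and COPII coat genes, whose products stay in the cytosol or cycle onto vesicles, had a median of 0.01 over 11 genes with 0 negative at an unadjusted p under 0.05 and 0 passing in limma.

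Plasmatocytes are the phagocytic blood cells of the fly, and 12 of 14 of their markers on the array were bright enough to test, against 3 of 9 muscle, 5 of 12 neuron and glia, 5 of 8 fat body, 7 of 13 germ line and 6 of 11 lamellocyte and crystal cell markers. The median shift of the plasmatocyte markers was -0.69, with 5 of 12 negative at an unadjusted p under 0.05, against 7.89% of all probe sets, and 0 passing in limma. Ppn (-1.74, adjusted p = 0.337), the scavenger receptor gene Sr-CI (-1.4, adjusted p = 0.327), the clotting gene Hml (-1.29, adjusted p = 0.352) and the receptor gene crq (-0.82, adjusted p = 0.41) were lowest. Ppn and Hml also belong to the secreted list. Between treatments the median log2 difference of the plasmatocyte markers was -0.16 in the nucleus and 0.61 in the cytoplasm. Their median log2 ratio was 2.55 in depleted cells and 3.5 in control cells. All probe sets with a mean log2 ratio of 2 to 3 or above 3 had median shifts of -0.43 and -0.46. For levels within a fraction, a changed share of a cell type and changed RNA per cell cannot be told apart in bulk samples. The medians of the other cell type lists were 0.95 for neuron and glia, 0.22 for fat body, -0.05 for muscle, -0.18 for germ line and -0.45 for lamellocyte and crystal cell markers, each on 3 to 7 genes and with 0 passing in limma.

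The RNA-processing machinery of U2AF itself was next examined. The list of U2AF and 3' splice site recognition had a median of -0.32 over 16 genes, with U2af50 the 1 that passed and 4 negative at an unadjusted p under 0.05. The splicing regulator gene hfp (-1.18, limma adjusted p = 0.121), Sf3b1 (-1.22, adjusted p = 0.383) and Sf3b5 (-0.84, adjusted p = 0.305), both of the U2 particle, followed U2af50 in size. All 12 tested hnRNP genes, which coat nascent RNA, had negative shifts (median -0.53), where 57% of all probe sets did, among them Rb97D (-1.87, adjusted p = 0.228), Syp (-1.18, adjusted p = 0.487), Sxl (-1.15, adjusted p = 0.469) and Hrb27C (-0.97, adjusted p = 0.168). Of these 12, 3 (25%) had an unadjusted p under 0.05, against 7.89% of all probe sets, and 0 passed in limma. SR protein genes had a median of -0.22 over 9, with the sex determination gene tra at -1.62 (adjusted p = 0.169) and the SR protein kinase gene SRPK at -1.48 (adjusted p = 0.285). Core snRNP and U1 genes had a median of 0.07 over 15, between CG3198 at -1.95 (adjusted p = 0.319) and SmD1 at 0.81 (adjusted p = 0.296).

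RNA exosome genes, whose products degrade RNA from its 3' end, had a median of -0.55 over 12. The ring subunit genes Rrp45 (-2.24, limma adjusted p = 0.223), Mtr3 (-2.2, adjusted p = 0.169) and Rrp46 (-1.5, adjusted p = 0.263) were lowest, followed by the helicase gene Mtr4 (-1.24, adjusted p = 0.39). Of the 12, 4 were positive, up to 0.69, and 0 passed in limma, with 3 at an unadjusted p under 0.05. Mtr3 had 132, 95.5 and 121 in the nucleus and 872, 868 and 609 in the cytoplasm of depleted cells, against 304, 130 and 466 in the nucleus and 253, 453 and 234 in the cytoplasm of control cells. The fractions of depleted cells were well apart for Mtr3 and those of control cells overlapped, at intensities close to the pseudocount. mRNA export genes had a median of -0.22 over 16 with 0 at an unadjusted p under 0.05 in either direction and 0 passing in limma, between thoc5 at -0.83 (adjusted p = 0.488) and e(y)2 at 1.1 (adjusted p = 0.498). Exon junction, cap-binding and nonsense-mediated decay genes had a median of -0.16 over 13, between btz at -2.16 (adjusted p = 0.264) and Upf1 at 1.03 (adjusted p = 0.504).

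Genes known to lack introns formed a list because U2AF acts on introns. Of 25 on the array, 10 were bright enough to test and 15 were not. Their median shift was -0.26, and 7 of 10 were negative, near the 57% of all probe sets, and 0 had an unadjusted p under 0.05 in either direction or passed in limma. The blastoderm gene Sry-alpha (-1.26, SE 0.66), the Notch target genes E(spl)malpha-BFM (-1.02, SE 0.93) and E(spl)m7-HLH (-0.87, SE 0.71) and the small heat shock gene Hsp26 (0.66, SE 0.51) had the largest shifts (limma adjusted p between 0.439 and 0.648). Hsp26 had 1432, 1342 and 873 in the nucleus and 714, 860 and 760 in the cytoplasm of depleted cells, against 766, 541 and 537 in the nucleus and 1201, 367 and 762 in the cytoplasm of control cells, where the fractions overlapped.

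The lists of the respiratory chain, translation factors and cytosolic ribosomal proteins had medians above that of all probe sets, in 26, 24 and 26 of 26 alternatives. After median centring the first 2 of these medians were negative, at -0.33 and -0.41. Lying above the median of all probe sets was not particular to these lists. Fat body markers and neuron and glia markers did so in 26 alternatives each. Mitochondrial ribosomal proteins did so in 25, and proteasome and core snRNP and U1 genes in 24 each. Respiratory chain genes had a median of 0.18 over 54, with 0 passing in limma and 10 (18.5%) positive at an unadjusted p under 0.05, where the background is 5.13%. Besides ND-MWFE they included ND-13A (0.95, adjusted p = 0.185), while the complex I genes ND-18 (-1.39, adjusted p = 0.298) and ND-15 (-0.93, adjusted p = 0.174) lay on the other side. Translation factors had a median of 0.08 over 32 with eIF6 passing, followed by the elongation factor gene eEF1alpha2 (1.02, adjusted p = 0.588) and the exchange factor gene eIF2Bbeta (0.95, adjusted p = 0.277). Cytosolic ribosomal proteins had a median of 0.06 over 28 with RpL28 passing, and RpL17 at 0.88 (adjusted p = 0.218). At an unadjusted p under 0.05, 4 were positive and 3 (10.7%) negative, the lowest being RpS15 at -0.61 (SE 0.18, limma adjusted p = 0.185), whose sign turned to 0.43 on the values as deposited and 0.04 after median centring. Their median was between 0 and 0.89 over the alternatives, the highest on the values as deposited. Mitochondrial ribosomal proteins had a median of 0.04 over 66 genes and proteasome genes 0.05 over 26, with 0 passing in limma and 6 and 1 at an unadjusted p under 0.05.

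Nucleolar and ribosome biogenesis genes had a median of 0 over 30, and Nop60B, the pseudouridine synthase of the box H/ACA particles, had the largest negative shift of the list (-2.97, SE 0.63, limma adjusted p = 0.0571). Nop60B had 592, 721 and 912 in the nucleus and 1929, 2024 and 1203 in the cytoplasm of depleted cells, against 779, 404 and 695 in the nucleus and 354, 26.3 and 74 in the cytoplasm of control cells, where replicate 1 stood apart. Ns1, the fly nucleostemin, had a shift of -1.71 (adjusted p = 0.225) and Nop10, a partner of Nop60B, one of 0.77 (adjusted p = 0.131). DNA replication genes had a median of -0.15 over 31. Mcm10, a replication fork factor, had 203, 51.3 and 99.9 in the nucleus and 1113, 1231 and 1423 in the cytoplasm of depleted cells, against 507, 598 and 427 in the nucleus and 612, 885 and 1265 in the cytoplasm of control cells. The Mcm10 nuclei were separate and the cytoplasms overlapped, and the shift of -2.24 (SE 0.54) did not pass (limma adjusted p = 0.108). Mediator genes had a median of -0.13 over 24, antimicrobial and immune genes -0.19 over 14 with the transcription factor gene dl at -1.52 (adjusted p = 0.208), p53 and apoptosis genes -0.18 over 11, glutathione transferases 0.01 over 25 and glycolytic enzymes 0 over 8. In limma 0 members of these lists or of the DNA replication list passed, and each list had 0 to 5 members at an unadjusted p under 0.05.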

How the data were processed

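The deposited values are linear intensities of 1-colour Affymetrix arrays, 1 value per probe set and array. The 2% trimmed mean of every deposited intensity column is 1000, so the arrays had been scaled to a common mean. Neither the software nor the background correction or summarisation is given in the sources used here. From these values log2(intensity + 94.7) was computed, with the 20th percentile of all intensities as pseudocount, which understates the changes of dim probe sets. The log2 values were quantile normalised over the 12 arrays, and probe sets with a mean above the 40th percentile were kept. limma 3.58.1 in R 4.3.3 fitted 4 group means with 8 residual degrees of freedom and moderated variances with an intensity trend, and p-values were adjusted by Benjamini-Hochberg over 8379 probe sets with a threshold of 0.05. The median SD over replicates was 0.42 in the U2AF50 nucleus, 0.2 in the U2AF50 cytoplasm, 0.28 in the control nucleus and 0.35 in the control cytoplasm (log2 units). The fit pools the groups, so its standard errors do not show this difference in spread. The shift is a difference of 2 differences, so its standard error is larger than that of either ratio, and a level is relative to the rest of its array.

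Gene names came from the platform's annotation and were checked through gene identifiers in RefSeq, where 12394 probe sets matched and 0 symbols changed. In all, 12444 probe sets have 1 symbol, 327 several and 1239 none. Named genes were, in each direction, up to 15 that passed with 1 symbol, filled up to 12 with those of smallest p where fewer passed, together with U2af50, U2af38 and up to 4 members of each list with the largest shifts. Genes and lists were chosen with earlier results of these data known. Exon counts, gene structures and sequences were not used here. The replicate numbers were checked for pairing by correlating the deviations of arrays from their group means. Same-numbered arrays had r between -0.09 and 0.14, and in 0 of 6 pairs of groups was every such r over 0.1, so the fit has no block. With 3 arrays per group this check cannot exclude pairing. On simulated data with 200 of 8379 probe sets changed, the test of the shift recovered 76% at a log2 size of 3, 38% at 2 and 4% at 1, with 4 false among 63 calls. The simulated noise was normal and independent, with 1 SD per probe set for all 4 groups. It held no differences between whole arrays and no unequal spread of groups, so the rate of false calls in the real data may be higher. The alternatives were other scalings, pseudocounts, filters, variance models, replicate blocks, array measures as covariates, the arrays labelled as hypotonic lysis and the omission of each array.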

Additional observations from a re-analysis of the deposited data

Results flagged for a closer look

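The effect of fraction differed between depleted and control cells, by the interaction term in limma, for 14 probe sets. The log2 shifts, U2AF50 RNA interference minus control, were 2.34 for RpL28, 2.29 for eIF6, 1.96 for U2af50, 1.46 for CG15784, 1.39 for 150001_at and 1.36 for CG14903. On the negative side they were -2.75 for 144927_s_at, -2.15 for CG3164, -2.07 for 143845_at, -1.95 for CG8026, -1.7 for miple2, -1.7 for Sil1, -1.45 for lncRNA:CR42862 and -1.23 for Swim.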

How the results depend on the processing

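The calls as reported were 6 positive and 8 negative. They numbered 10 and 25 without quantile normalisation, 10 and 173 after median centring, 7 and 20 with quantiles taken per fraction, 8 and 17 with a pseudocount at the 40th percentile and 8 and 17 with a filter at the 60th percentile. They were 4 and 3 with no filter, 1 and 4 without an intensity trend, 9 and 19 with array weights, 3 and 0 with either array measure, GAPDH ratio or hybridisation controls, as covariate, and 0 and 0 on the arrays labelled as hypotonic lysis. The replicate block over 3 numbers gave 9 and 11 and the replicate block within treatment 5 and 5. Whether the numbers pair the arrays is not known. In the check for pairing, 5 of 12 arrays correlated best with an array of their own number. With 3 arrays per group that check cannot exclude pairing. Leaving out 1 array gave 3 to 30 positive and 0 to 53 negative calls. U2af50 was no longer past the threshold at 1.58 with centring, 1.96 without a filter, without a trend or with the replicate block within treatment, 2.03 and 2.05 with the GAPDH and hybridisation covariates and 2.15 on the hypotonic arrays, and lay between 1.74 and 2.28 without single arrays. Signs turned for U2af38 (0.09 on the hypotonic arrays, -0.23 to 0.12 without single arrays), RpS15 (0.43 as deposited, 0.04 centred) and eEF1alpha2 (-0.19 with the hybridisation covariate). The cause was not tested.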
